A study of Mus musculus with 2 samples.

Results

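Macrophage and myeloid marker genes are transcripts by which macrophages, and the monocytes they can arise from, are recognised in a tissue. A list of 43 such genes was followed here in mouse pancreas, chosen by name and matched to array probes through the RefSeq accession of each probe. Of these, 42 had at least 1 probe, out of 22911 named genes on the array, and 33 gave a signal well above background on both arrays. The other 9 were well above background on the Nrdc-cKO array only, and Clec7a, the receptor Dectin-1 for fungal glucans, was matched to no probe and has no value here.

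The study asked what nardilysin, a metalloendopeptidase encoded by Nrdc, does in the exocrine pancreas. Whole pancreas was taken from C57BL/6 males aged 5 weeks, and its total RNA was labelled with the dye Cy3 for 1-colour Agilent arrays. The WT group had 1 array and so did the Nrdc-cKO group, in which Cre recombinase driven by Ptf1a acts on loxP-flanked Nrdc alleles. The labels do not say which of these alleles, if any, the WT mouse carried, nor whether an array held RNA of 1 animal or of a pool. Ptf1a acts in the precursors of the pancreas and in acinar cells, and macrophages come from the blood-forming lineage rather than from that epithelium. With 1 array per group there are no replicates, so no test was made and each difference below describes these arrays alone.

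Macrophages settle in the pancreas before birth and are later joined by cells derived from blood monocytes. They take up dying cells and debris through scavenger and lectin receptors, bind antibody-coated particles through Fc receptors that signal through adaptor proteins with ITAM motifs, and can produce reactive oxygen with a membrane oxidase. The growth factor receptor encoded by Csf1r keeps them alive, and the transcription factor PU.1, encoded by Spi1, is required for them to form.

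A level below is the log2 processed signal minus the 75th percentile of its array, so 0 is a probe at that percentile, and a difference is the Nrdc-cKO level minus the WT level. The targeted gene, Nrdc, had a level of 1.93 for WT and -1.28 for Nrdc-cKO, from 1 probe that may lie outside the deleted part. The share of non-control spots well above background was 46.3% for WT and 60.3% for Nrdc-cKO. Of 13001 genes detected on both arrays, 12.8% were higher for Nrdc-cKO by 2-fold or more and 17.3% lower by as much, and their median difference was -0.18. All differences are relative to this scaling, and another scaling moves the median of all genes by up to 1.90 on the log2 scale.

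Against that background, 31 of the 33 markers detected on both arrays were higher for Nrdc-cKO by 2-fold or more and 0 were lower by 2-fold or more. The median difference of the markers was 2.42, which is 5.34-fold. A difference larger than this was seen in 2.02% of all genes. A total of 25 markers were at least 4-fold higher, against 3.73% of all genes. The markers lay close together, with 23 between 2 and 3 on the log2 scale, 6 between 1 and 2, and 2 above 3. The exceptions below 2-fold were Csf1r and Nos2. The error of a marker's difference, from the scanner software's own error model, was between 0.14 and 0.32, which covers the reading of the spot and not the spread between animals. Because whole tissue was measured, more macrophages, more RNA per macrophage and a smaller share of RNA from other cells cannot be told apart.

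**Figure D1:**
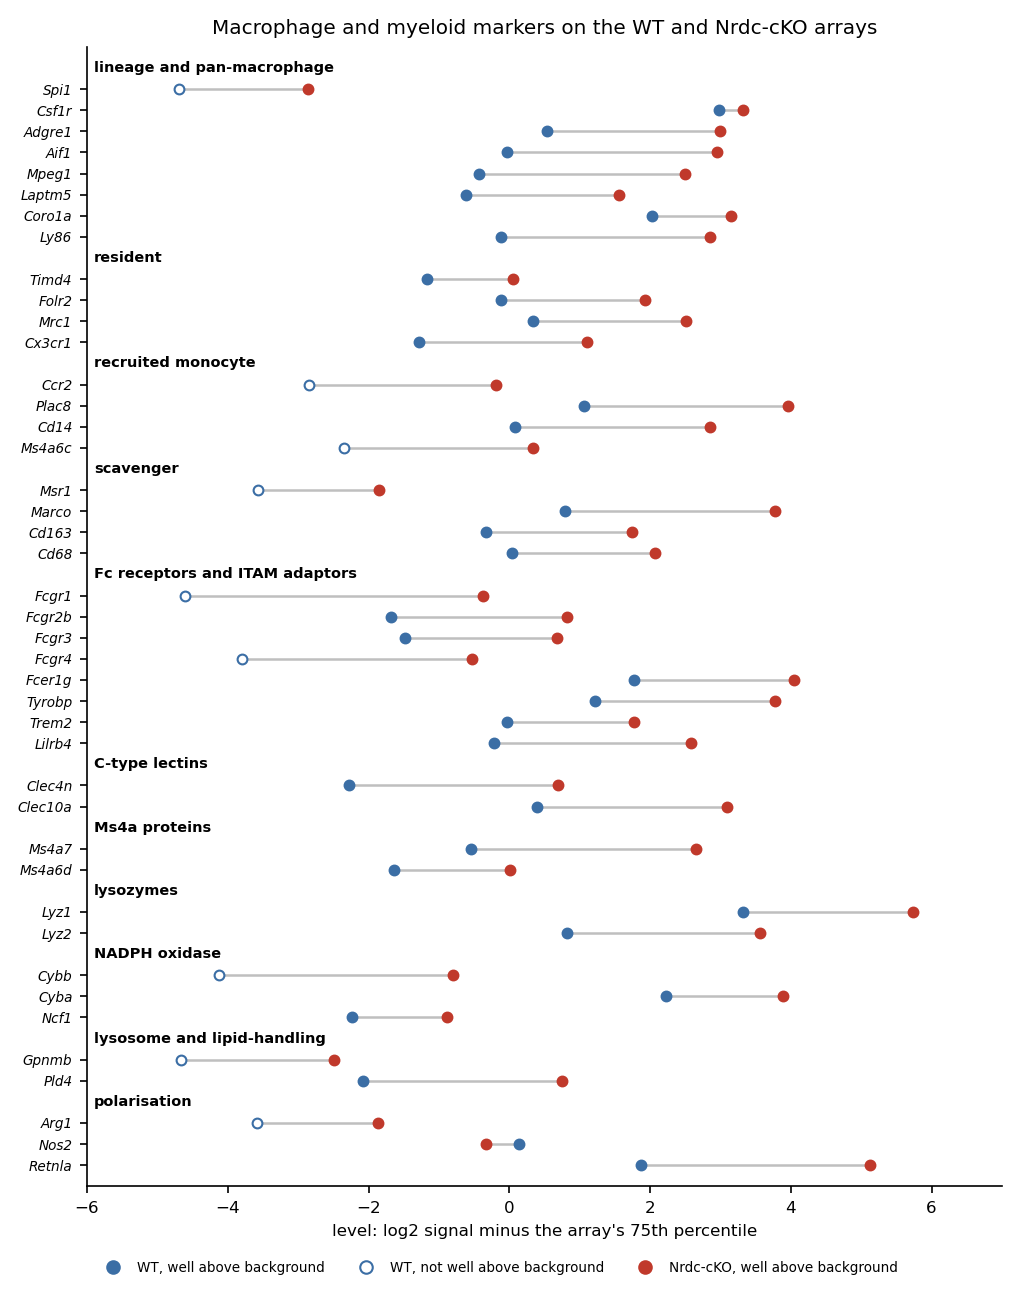
Level of each of the 42 markers with a probe (log2 signal minus the 75th percentile of the array) on the WT array (blue) and the Nrdc-cKO array (red), 1 array each, grouped by role, with open symbols where the WT signal was not well above background. Every red point except that of Nos2 lies to the right of its blue point, and the bars have similar lengths in most groups.

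The genes of lineage and general macrophage identity were higher on the Nrdc-cKO array, with Csf1r as the exception in size. Aif1, the actin-binding protein IBA1, went from -0.04 on the WT array to 2.94 on the Nrdc-cKO array, a difference of 2.98. Ly86, the partner MD-1 of the receptor RP105, went from -0.11 to 2.85, and Mpeg1, the pore-forming protein perforin-2, from -0.44 to 2.50. Adgre1, which encodes F4/80, the classical surface marker of mouse macrophages, stood at 0.54 and 2.99, a difference of 2.45. These 4 genes were thus between 5.45-fold and 7.90-fold higher. Laptm5, a lysosomal membrane protein of blood cells, differed by 2.17, and Coro1a, an actin regulator found in most leukocytes, by 1.13, from 2.03 to 3.15.

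Csf1r was measured by 2 probes that went in opposite directions. The first stood at 4.59 for WT and 5.74 for Nrdc-cKO, a difference of 1.15. The second stood at 1.36 and 0.91, a difference of -0.46. Their mean, 0.35, is 1.27-fold and describes neither probe, so the receptor has no settled direction here.

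Spi1 was not well above background on the WT array, where its level was -4.70, and was measured at -2.87 on the Nrdc-cKO array. The lowest level counted as detected on the WT array was -2.64, above the Nrdc-cKO level of Spi1, so no fold can be given. PU.1 binds purine-rich sites with a GGAA core, and the letters GAGGAA were searched on both strands of the 250 bases before the start of each gene in the RefSeq table of build GRCm38.p6, which had 31 of the 43 markers. They were present in 12 of the 31 (38.7%), against 25.9% of all 27025 genes in that table. In the last 60 bases before the start, a window chosen after the positions had been seen, they were present in 8 of the 31 (25.8%), against 7.02% of all genes. The longer form GAGGAAGT, which contains the shorter one, was present in the 250 bases of Fcgr4 and Retnla, 2 of the 31 (6.45%), against 2.79%. A match of letters is a description of the sequence and not a measured site of binding.

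The 60 bases before the start are shown for these 8 genes, since their closeness to the start is what the count rests on, with the motif in capitals. All read TTCCTC, the reverse complement, in the direction of the gene. The windows lie at chr17:35176053-35176112 for Aif1, chr3:96293970-96294029 for Fcgr1, chr1:171059395-171059454 for Fcgr3, chr5:100572206-100572265 for Plac8, all on the minus strand, and at chr1:171018866-171018925 for Fcgr4, chr4:130913256-130913315 for Laptm5, chr2:14229354-14229413 for Mrc1 and chr17:48346341-48346400 for Trem2, all on the plus strand.
Aif1: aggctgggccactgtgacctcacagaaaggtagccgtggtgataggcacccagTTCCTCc
Fcgr1: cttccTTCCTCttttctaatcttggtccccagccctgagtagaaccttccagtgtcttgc
Fcgr3: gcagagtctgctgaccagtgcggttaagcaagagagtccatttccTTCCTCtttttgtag
Fcgr4: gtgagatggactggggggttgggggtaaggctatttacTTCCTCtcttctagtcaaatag
Laptm5: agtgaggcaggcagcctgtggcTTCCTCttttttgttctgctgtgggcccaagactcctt
Mrc1: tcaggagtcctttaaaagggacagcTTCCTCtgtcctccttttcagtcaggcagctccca
Plac8: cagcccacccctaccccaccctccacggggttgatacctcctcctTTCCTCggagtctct
Trem2: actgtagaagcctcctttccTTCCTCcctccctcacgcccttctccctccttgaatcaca

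Of these 8 genes, 6 were detected on both arrays, with differences from 1.81 for Trem2 to 2.98 for Aif1, a range that the markers without the motif near the start also span. Fcgr1 and Fcgr4 were detected only for Nrdc-cKO.

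Markers of resident macrophages, of recruited monocytes and scavenger receptors were each higher on the Nrdc-cKO array. Among the 4 resident markers, Timd4, a receptor for phosphatidylserine on dying cells, had the smallest difference, from -1.17 to 0.05, or 1.22 with an error of 0.23. Folr2, a folate receptor of tissue macrophages, went from -0.12 to 1.93, a difference of 2.05. The mannose receptor Mrc1 (CD206) went from 0.34 to 2.51, a difference of 2.18, and the fractalkine receptor Cx3cr1 from -1.28 to 1.11, a difference of 2.39. The median of the 4 was 2.11.

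Of the 4 markers assigned to recruited monocytes, 2 could be compared directly. Plac8, abundant in inflammatory monocytes, went from 1.06 to 3.96, a difference of 2.90 with an error of 0.21. Cd14, the co-receptor for bacterial lipopolysaccharide, went from 0.08 to 2.85, a difference of 2.77 with an error of 0.15, and its 2 probes gave 2.69 and 2.86. Both were above every resident marker, and whether their signal came from monocytes alone was not tested. The chemokine receptor Ccr2, by which monocytes leave the bone marrow, was not well above background for WT (-2.85) and stood at -0.19 for Nrdc-cKO, at least 5.47-fold higher. Ms4a6c, a membrane protein of monocytes, was also not well above background for WT and stood at -2.35 and 0.33, 6.41-fold higher. A bound sets the Nrdc-cKO level against the higher of the lowest detected WT level and the probe's own WT level. For Ms4a6c the probe's own WT level was the higher. Its bound is therefore the plain difference, with an error of 0.36, and not a minimum.

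The 3 scavenger receptors detected on both arrays differed by 2.03 to 2.98. Marco, which binds bacteria and particles, went from 0.79 to 3.77, a difference of 2.98. Cd163, the receptor for haemoglobin bound to haptoglobin, went from -0.32 to 1.74, a difference of 2.06. Cd68, a protein of lysosomes and late endosomes, differed by 2.03, with its 2 probes at 1.60 and 2.45. Msr1, scavenger receptor A, was not well above background for WT (-3.57) and stood at -1.85 for Nrdc-cKO, at least 1.72-fold higher. The medians of the markers detected on both arrays were 2.11 for resident, 2.84 for recruited and 2.06 for scavenger genes, from 4, 2 and 3 genes. Whether these groups differ could not be tested with 1 array in each group, and the range within the resident and within the scavenger group was wider than the distance between any of these medians.

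**Figure D2:**
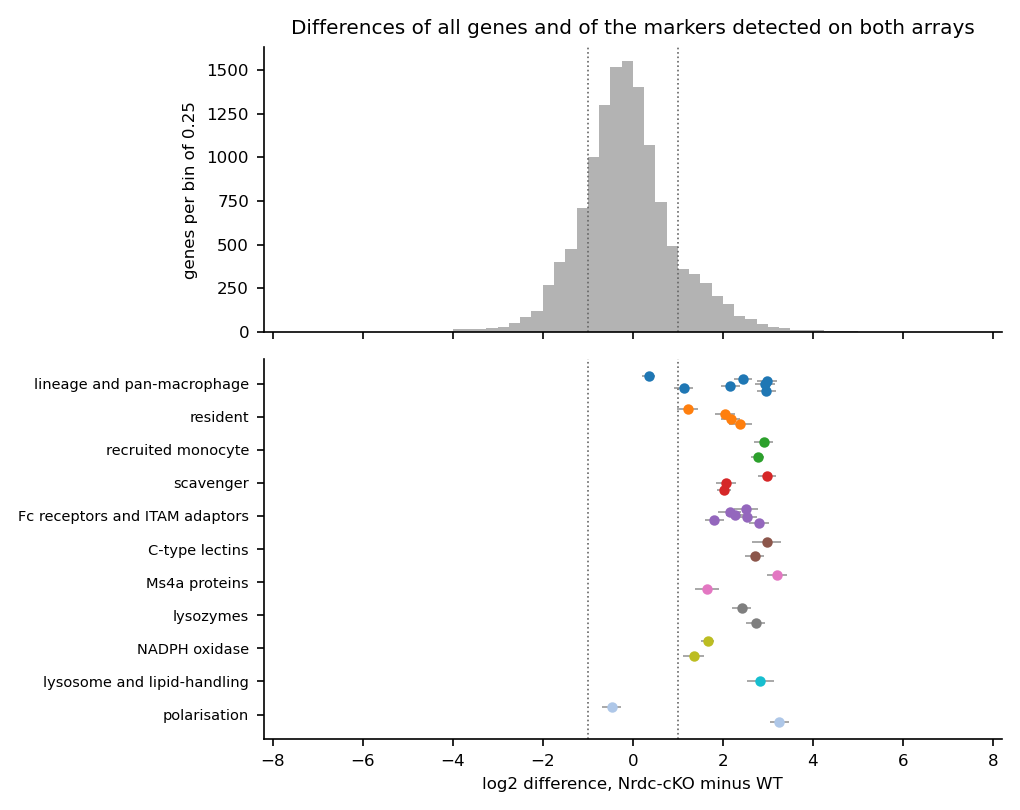
Upper panel, the number of genes in each bin of 0.25 of the log2 difference, Nrdc-cKO minus WT, for all 13001 genes detected on both arrays. Lower panel, the 33 markers detected on both arrays by role, with bars for the software's error and dotted lines at 2-fold, where all but Csf1r at 0.35 and Nos2 at -0.47 lie to the right of the 2-fold line.

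All 6 genes of Fc receptors and ITAM adaptors that could be compared were at least 2-fold higher, with a median of 2.39. Fcer1g, the shared gamma chain of activating Fc receptors, went from 1.77 on the WT array to 4.05 on the Nrdc-cKO array, a difference of 2.28. Tyrobp, the adaptor DAP12, went from 1.22 to 3.77, a difference of 2.55, and Trem2, a lipid-sensing receptor that signals through it, from -0.03 to 1.78, a difference of 1.81. Both adaptors and Trem2 were therefore higher on the same array.

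The inhibitory receptor Fcgr2b went from -1.68 to 0.83, a difference of 2.50, and the activating receptor Fcgr3 from -1.48 to 0.68, a difference of 2.16. The high-affinity receptor Fcgr1 was not well above background for WT (-4.61) and stood at -0.37 for Nrdc-cKO, at least 4.82-fold higher. Fcgr4 stood at -3.80 and -0.52 and was at least 4.33-fold higher. Inhibitory and activating receptors were thus higher alike. Lilrb4, an inhibitory receptor that the RefSeq table lists as Lilrb4a, differed by 2.80, from -0.22 to 2.58. Sequences of the Fcgr genes resemble each other, and a probe for one can take up transcripts of another.

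The lectin and Ms4a genes held some of the largest differences. Clec4n (Dectin-2), which binds fungal mannans, went from -2.28 to 0.70, a difference of 2.98, and Clec10a, a lectin for galactose and N-acetylgalactosamine, from 0.39 to 3.10, a difference of 2.71. Ms4a7, a membrane protein of macrophages, went from -0.55 to 2.66, a difference of 3.21. A second Ms4a7 probe, not well above background on the WT array, was 9.91-fold higher by the plain difference, with an error of 0.37. Ms4a6d had a smaller difference of 1.65, from -1.63 to 0.01.

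Both lysozyme genes were higher. Lyz2, the lysozyme of macrophages, went from 0.83 to 3.55, a difference of 2.73. Lyz1, known from Paneth cells of the intestine, went from 3.32 to 5.74, a difference of 2.42. The coding sequences of this pair are close copies, so how the signal divides between them is uncertain.

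Of the phagocyte NADPH oxidase, the 2 subunits detected on both arrays, Cyba and Ncf1, differed by less than the marker median, and the third, Cybb, has only a lower bound. Cyba (p22phox), which many cell types express, went from 2.23 to 3.89, a difference of 1.67, with its 2 probes at 1.52 and 1.82. Ncf1 (p47phox), the cytosolic organiser, went from -2.24 to -0.88, a difference of 1.35, with 1 probe at 1.70 and the other at the 2-fold threshold. Cybb (gp91phox), the catalytic subunit found mainly in phagocytes, was not well above background for WT (-4.13) and stood at -0.81 for Nrdc-cKO. Its mean bound over 2 probes was at least 3.56-fold.

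Pld4, an endolysosomal nuclease, went from -2.08 to 0.75, a difference of 2.83. Gpnmb, a glycoprotein of lipid-laden macrophages, stood at -4.67 on the WT array, not well above background, and at -2.50 on the Nrdc-cKO array, and its bound was at least 1.10-fold. Genes used to describe macrophage polarisation differed among themselves. Retnla, a secreted protein of alternatively activated macrophages that is also made in white fat, went from 1.87 to 5.13, a difference of 3.25 (9.55-fold). Arg1, arginase 1, was not well above background for WT (-3.59) and stood at -1.87 for Nrdc-cKO, at least 1.70-fold higher. Nos2, the inducible nitric oxide synthase of classically activated macrophages, stood at 0.13 and -0.34, a difference of -0.47 with an error of 0.21, which became 0.03 in the value table of the authors and 1.43 under spike-in scaling.

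Of the 57 probes for the markers, 38 were detected on both arrays, 17 only on that of Nrdc-cKO and 0 only on that of WT, and 36 of the 38 were higher on the Nrdc-cKO array. The same shares over all probes were not counted. Counted by gene, 9 of the 42 markers with a probe were detected only for Nrdc-cKO, against 12.4% of all named genes. Of those named genes, 22.2% had a bound of at least 2-fold. For the markers, 5 of 9 had such a bound, namely Ccr2, Ms4a6c, Fcgr1, Fcgr4 and Cybb. The remaining 2 probes, one each for Adgre1 and Ncf1, were detected on neither array.

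**Figure D3:**
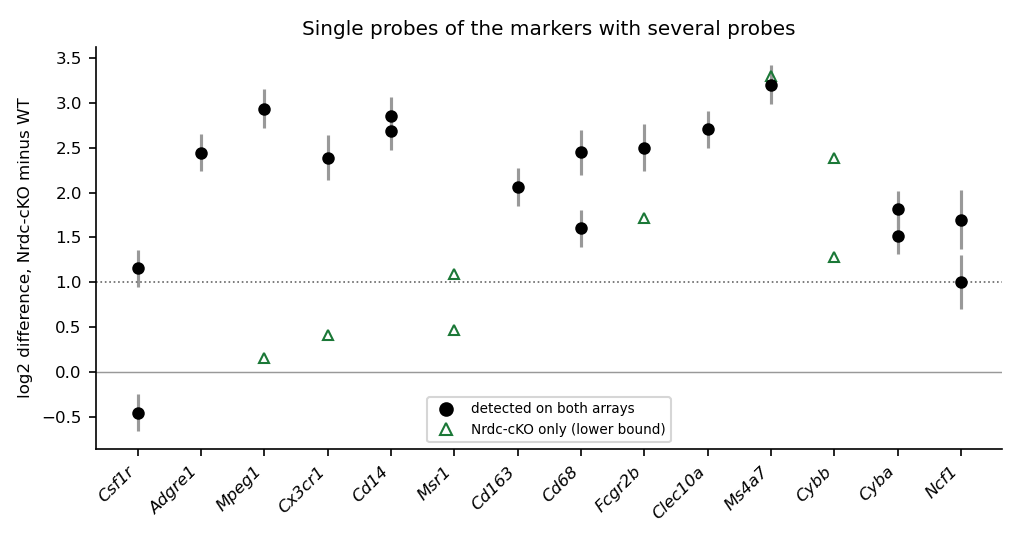
Log2 difference, Nrdc-cKO minus WT, of single probes for the 14 markers with more than 1 probe. Black circles with software error bars are probes detected on both arrays, and open triangles are bounds above 0. The 2 probes of Csf1r, at 1.15 and -0.46, lie on opposite sides of 0.

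Other genes of the same processes were examined as 5 lists of 58 genes. Of the 42 detected on both arrays, 30 were higher by 2-fold or more and 1 was lower by as much, and their median was 1.97. Ligands that draw in or sustain macrophages had 5 of 5 at least 2-fold higher. Ccl12 (4.02) and Ccl7 (3.96), both ligands of Ccr2, were highest, and the growth factors Csf1 (2.02) and Il34 (1.51), both ligands of Csf1r, were lowest. Ccl8 and Cx3cl1, the ligand of Cx3cr1, were detected only for Nrdc-cKO, 62.5-fold and 11.7-fold higher by the plain difference. Csf2 and Csf3 were detected on neither.

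The cytosolic oxidase subunits Ncf4 (3.09) and the small GTPase Rac2 (2.83) were higher, while the general GTPase Rac1 (-0.10) was within 2-fold and the epithelial oxidase Nox1 (-1.49) was lower. Signalling molecules downstream of ITAM adaptors were split, with 4 of 7 past 2-fold upwards and 0 downwards. The exchange factor Vav1 (2.41) and the lipid phosphatase Inpp5d (2.36), SHIP1, were highest, and the phosphatase Ptpn6 (0.23) and the kinase Lyn (-0.44) were lowest. The 3 probes of Ptpn6 ranged from -0.62 to 0.79.

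Of 8 transcription factors, 3 were past 2-fold upwards and 0 downwards, and the median was 0.75. Irf8 (2.88), a factor of monocytes and macrophages, and the zinc finger factor Zeb2 (2.34) were highest, and Bhlhe40 (0.62) and Gata6 (0.20), the latter known from macrophages of the peritoneal cavity but also from other cells, were within 2-fold. Among 17 further macrophage genes, 15 were past 2-fold upwards and 0 downwards. The activation marker Cd83 (4.27) and the lectin Cd209f (2.91) were highest, and the efferocytosis receptor Mertk (0.73) and the integrin chain Itgam (0.03), CD11b, were within 2-fold.

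Markers of other cell types differed between the arrays as well, and their part in the marker differences was not tested. Leukocytes share several of the markers. For example, Coro1a and Laptm5 are found in most leukocytes, and Fcgr2b, Ly86 and Pld4 also in B cells. These examples are not a full list of the shared markers. Of 11 neutrophil markers with a probe, 3 were detected on both arrays, with differences of 3.82 for S100a9, -0.22 for Csf3r and -1.18 for Elane. Another 7 were detected only for Nrdc-cKO, among them S100a8, at least 9.39-fold higher, and Camp, at least 7.10-fold. The T cell marker Cd3e differed by -1.41, Cd4 by -0.59 and Cd3d by 0.15. Another 5 T cell markers were detected only for Nrdc-cKO, and 2 of these had a bound of at least 2-fold. The highest was Il7r, at least 4.49-fold higher. Of the B cell markers, Pax5 differed by -1.92 and Cd22 by 0.11, while Cd79b and Ms4a1 were detected only for Nrdc-cKO, at least 21.0-fold and 9.42-fold higher. The dendritic cell list had 1 gene detected on both arrays, Siglech, with a difference of -0.04. Another 6 of its 8 genes were detected only for Nrdc-cKO. Their lower bounds all fell short of 2-fold, which leaves the size of their differences unknown. Of the 5 comparable mast cell markers 3 were past 2-fold upwards, among them the proteases Cma1 (2.68) and Mcpt4 (2.40). The receptor gene Kit (-1.07) was lower. Summed over a list, with each gene at its brightest probe and in units of the array's 75th percentile, the levels on the WT and Nrdc-cKO arrays were 112 and 101 for neutrophils, 224 and 220 for dendritic cells, 22.7 and 16.6 for T cells, 2.24 and 7.78 for B cells, and 2.82 and 6.79 for mast cells. The first 2 of these pairs were set mostly by 1 probe each, for Csf3r and for Siglech. The same sums were 83.7 and 355 for the macrophage and myeloid markers, and a few bright probes weigh heavily in them. Their log2 levels on WT and Nrdc-cKO were 4.59 and 5.74 for Csf1r, 3.32 and 5.74 for Lyz1, and 3.45 and 4.97 for Cyba. Retnla, at 5.13, adds to the Nrdc-cKO sum. Csf1r had no settled direction, and Cyba is expressed by many cell types. Markers detected on neither array were Cxcr2 for neutrophils, Xcr1 for dendritic cells and Cd8a for T cells.

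Marker levels of cell types other than leukocytes differed between the arrays too. All 10 acinar cell markers were at least 2-fold lower, with a median of -2.04 and sums of 37967 and 8887, although spike-in scaling adds 1.90 to every difference. All 6 fibroblast markers were at least 2-fold higher (median 2.16, sums 205 and 771), as were all 6 islet markers (median 3.54, sums 363 and 2670). Endothelial markers had a median of 0.81, with sums of 7.67 and 13.0 and 2 of 6 at least 2-fold higher. Of 8 adipocyte markers, 5 were detected only for Nrdc-cKO, with Cfd at least 1360-fold higher and Cidec at least 278-fold. Of the 3 detected on both arrays, Plin4 differed by 6.40, Pparg by 0.28 and Lep by -1.87. The adipocyte sums were 6.98 and 389. Lymph node stroma markers had sums of 4.06 and 24.8, with Cxcl13 at least 91.8-fold higher for Nrdc-cKO, a difference of -1.02 for Glycam1 and Madcam1 detected on neither. Macrophages also occur in fat and in lymphoid tissue, and which tissue compartment gave the marker signal was not tested.

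**Figure D4:**
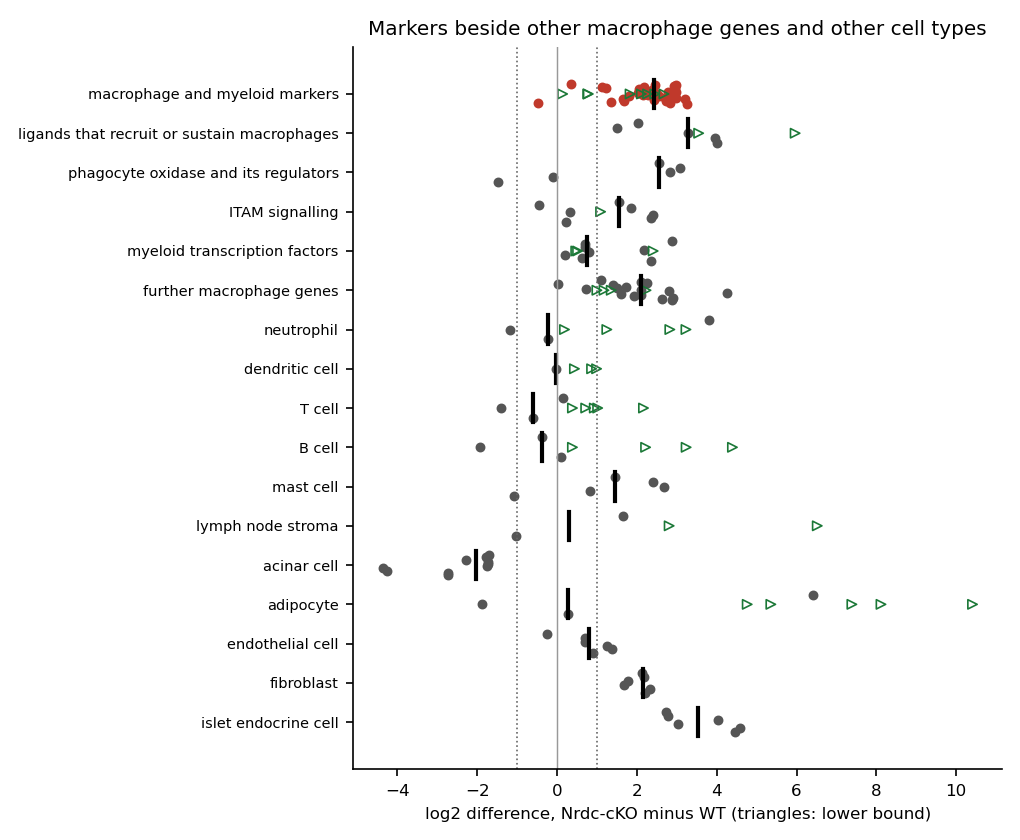
Log2 difference, Nrdc-cKO minus WT, of genes detected on both arrays (points) with the list median (bar). Triangles are bounds above 0 for genes detected only for Nrdc-cKO, and dotted lines lie at 2-fold. The macrophage and myeloid markers have a median of 2.42, between the fibroblast list at 2.16 and the islet list at 3.54, and the acinar list lies at -2.04.

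The scaling moved all markers together. The marker median stood 2.60 above the median of all genes in the reported setting, and equally under the spike-in scaling, in the table of the authors and with the percentile taken over probes detected on both arrays, which shift every gene alike, and 2.57 above it with quantile scaling. With normexp, which models background and compresses dim signals, it stood 1.97 above. The count of markers at least 2-fold higher was then 28 of 33, against 9.58% of all genes. The markers lost were Timd4 (0.53), Ms4a6d (0.72) and Ncf1 (0.21). Csf1r was 0.35 in the reported setting and 2.24 with spike-in scaling.

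**Figure D5:**
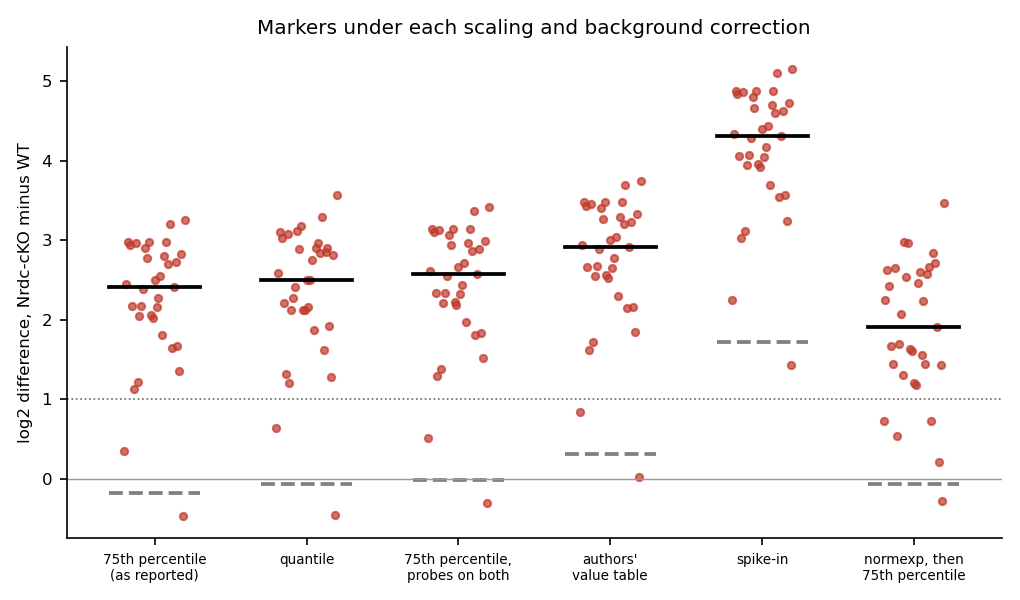
Log2 difference, Nrdc-cKO minus WT, of the 33 markers (points) under each scaling or background correction, with the marker median (solid bar) and the median of all genes (dashed bar). The marker median lies above the median of all genes in each of the 6 settings shown, by 1.97 to 2.60.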

How the data were processed

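Scanner files of 1 WT and 1 Nrdc-cKO array were used. Per the file headers, Agilent Feature Extraction 12.0.3.1 made the deposited background-corrected processed intensity, its error and the median and background intensities; the submitters' processing notes name version 11.5.1.1. Values in the table deposited by the authors were the processed intensity times a constant (4.37 on WT, 1.92 on Nrdc-cKO), linear and with column medians of 42.5 and 66.0. How the constants were chosen stays unknown.

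Of 59305 non-control spots, 115 were left out as outliers on either array and 0 were saturated, leaving 56604 probes. The log2 signal of repeat spots was averaged and the 75th percentile subtracted. Detection of a probe needed 0.5 or more of its spots flagged as well above background. Genes were valued by the mean over its probes detected on both arrays. The threshold was 1 on the log2 scale, which is 2-fold. Accessions without versions named 32993 probes through the RefSeq table of GRCm38.p6; the headers name another build, so the files' coordinates were not used. The error of a difference combined the software's errors of both signals. The SD of the log2 difference over repeat spots had a median of 0.03 (291 probes). The number of arrays limits the precision.

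The genes, lists and roles were chosen with earlier results of these data known. Every marker is given; of other lists, the extremes and the most abundant genes could be named. Genes not reported here were left out of the lists and their counts. Ms4a1, Il7r, Ccl8, Cx3cl1, S100a8, Camp, Plin4, Pparg and Lep fall outside that rule. So do the C1q chains, Vsig4, Lyve1, Stab1 and genes named as detected on neither array. All of these were chosen after their values were seen. Alternatives were quantile, spike-in (8 E1A probes) and detected-probe scaling, the value table, normexp (limma 3.58.1, R 4.3.3, offset 50) on the median signal, other filters on dim probes, the brightest probe, 4-fold and bounds. Scaling was checked on data simulated from the WT array, with every probe set as detected and equal numbers of genes raised and lowered. That check covers the calculation and cannot show whether the scaling suits these 2 arrays. Python 3.11.15 was used.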

Additional observations from a re-analysis of the deposited data

How the results depend on the processing

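No paired analysis was possible because there was 1 array per group, and for the same reason no replicate could be left out. The number of markers at least 2-fold higher was 31 of 33 as reported and between 28 and 33 of 33 under the scalings and background correction run, 32 with the brightest probe of a gene, 39 of 42 with no filter on dim probes, 23 of 24 with bright probes only and 25 of 33 at 4-fold. The number at least 2-fold lower was 0 in each of these. The marker median, 2.42 as reported, was 4.31 under spike-in scaling, 2.91 in the authors' table and 1.90 under normexp. In the same order the resident median, 2.11 as reported, was 4.01, 2.61 and 1.50, and the scavenger median, 2.06, was 3.96, 2.56 and 1.63. The recruited median, 2.84, was 4.73, 3.33 and 2.76. Spike-in scaling and the authors' table each add 1 constant to every gene. The cause of the lower values with normexp was not tested. Relative to the reported setting, the all-gene median moved by 0.50 in the authors' table, 0.11 with quantile scaling, 0.12 with normexp, 0.16 with the 75th percentile over probes detected on both arrays and by -0.28 with no filter. The higher genes were 42.5% of all genes past 2-fold as reported, 98.9% under spike-in scaling, 72.9% in the authors' table, 53.0% with the 75th percentile over probes detected on both arrays and 27.9% with no filter. Signal over background limits the 9 markers not well above background on the WT array, for which only a bound is known.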

Other observations

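Some leukocyte genes outside the marker list had WT levels far above the 75th percentile of the array and hardly differed between the arrays. They were chosen after their values were seen. Siglech, a receptor of plasmacytoid dendritic cells, stood at 7.81 for WT and 7.77 for Nrdc-cKO, the receptor gene Csf3r at 6.73 and 6.51, the kinase Lyn at 7.12 and 6.68, and the integrin chain Itgam at 4.62 and 4.65. Each value comes from 1 probe, and those of Csf3r and Siglech set most of the summed levels of the neutrophil and dendritic cell lists. No other gene of the dendritic cell list was detected on the WT array. Whether these probes report the named genes alone was not tested.

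The complement C1q chains, which macrophages make, differed by unlike amounts, with C1qa at 1.11, C1qb at 2.10 and C1qc at 2.25, each from 1 probe and chosen after their values were seen. Vsig4, a complement receptor of tissue macrophages, was detected only for Nrdc-cKO and was at least 2.56-fold higher, and Lyve1 and Stab1, shared by some resident macrophages and lymphatic or sinusoidal endothelium, differed by 1.60 and 2.11.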
